A study of Rattus norvegicus with 5 samples.

Results

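A set of 8 growth-arrest genes that answer to p53 and to cell stress was followed across 5 cultures of rat liver cells: the 3 GADD45 genes (Gadd45a, Gadd45b, Gadd45g), the antiproliferative genes Btg1 and Btg2, and the p53 feedback genes Mdm2, Ccng1 and Sesn1. The members were chosen by gene name, with earlier results of these data known. Of the 8 genes, 7 had a probe whose accession matched a current RefSeq rat gene, out of 15167 genes named on the array. Mdm2 had 2 such probes, which made 8 member probes, and each was well above background on all 5 arrays. Sesn1, the stress-induced sestrin that restrains mTORC1, has no expression value here, and only its promoter window was read.

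The cells were BRL-3A, a line from Buffalo rat liver. One group had received a lentivirus for overexpression of Tmub1, and another a lentivirus for its knockdown. Each of these vectors had a negative control virus, carried by a group of its own, and the last group was the normal control without virus. Transduced cells were harvested 48 h after transduction, and 1 µg of total RNA per group was labelled with Cy3 for a one-colour Agilent array. Each group had 1 array, so no difference has a replicate check and no p-value is given. The promoter that drives the vectors, the share of cells transduced and the sequence of the knockdown construct are not given in the sources used here.

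GADD45 proteins are small acidic nuclear proteins without enzyme activity of their own. They bind PCNA, the cyclin B1 and CDK1 pair and the kinase MAP3K4, and through these can slow the cell cycle and switch on p38 and JNK signalling. BTG proteins recruit the CCR4-NOT deadenylase to messenger RNAs, which shortens poly(A) tails. MDM2 is the ubiquitin ligase that degrades p53, and cyclin G1 brings the phosphatase PP2A to MDM2, so both act as negative feedback on the factor that induces them. In liver, Gadd45b is known as an early gene of regeneration and Gadd45a as a gene of genotoxic and nutrient stress.

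The promoter windows of the GADD45 and BTG members are shown because the GADD45 genes all stood highest with the knockdown virus whereas the BTG genes did not. Each window is the 250 bases upstream of the annotated start, read 5′ to 3′ on the strand of the gene, from RefSeq on build GRCr8, in which all 8 members were found. They lie at chr4:97486800-97487049 (minus strand) for Gadd45a, chr7:9430719-9430968 (minus) for Gadd45b, chr17:13530352-13530601 (minus) for Gadd45g, chr7:33227899-33228148 (plus) for Btg1 and chr13:48087691-48087940 (minus) for Btg2. Capitals mark matches, on either strand, to CCAAT, to TATAAA, to TGACGTCA (the palindromic site of the CREB and ATF factors) and to the p53 consensus half-site.
Gadd45a: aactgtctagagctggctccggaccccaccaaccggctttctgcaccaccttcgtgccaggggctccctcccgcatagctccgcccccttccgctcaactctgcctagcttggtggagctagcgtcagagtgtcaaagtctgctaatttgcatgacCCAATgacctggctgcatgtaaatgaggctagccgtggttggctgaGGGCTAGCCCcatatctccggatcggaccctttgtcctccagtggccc
Gadd45b: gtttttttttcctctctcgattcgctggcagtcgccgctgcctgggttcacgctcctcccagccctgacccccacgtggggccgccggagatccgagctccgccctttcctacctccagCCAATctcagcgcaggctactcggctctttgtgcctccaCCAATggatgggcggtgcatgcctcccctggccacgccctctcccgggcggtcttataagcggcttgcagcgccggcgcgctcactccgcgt
Gadd45g: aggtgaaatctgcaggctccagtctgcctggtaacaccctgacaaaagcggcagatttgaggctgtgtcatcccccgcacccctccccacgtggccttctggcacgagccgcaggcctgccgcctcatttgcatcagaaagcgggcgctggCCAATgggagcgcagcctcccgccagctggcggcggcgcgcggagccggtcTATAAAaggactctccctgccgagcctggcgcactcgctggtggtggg
Btg1: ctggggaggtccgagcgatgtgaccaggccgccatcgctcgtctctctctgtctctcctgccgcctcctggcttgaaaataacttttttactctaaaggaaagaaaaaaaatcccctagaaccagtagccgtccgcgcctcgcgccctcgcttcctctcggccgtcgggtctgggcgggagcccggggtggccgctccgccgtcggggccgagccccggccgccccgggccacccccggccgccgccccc
Btg2: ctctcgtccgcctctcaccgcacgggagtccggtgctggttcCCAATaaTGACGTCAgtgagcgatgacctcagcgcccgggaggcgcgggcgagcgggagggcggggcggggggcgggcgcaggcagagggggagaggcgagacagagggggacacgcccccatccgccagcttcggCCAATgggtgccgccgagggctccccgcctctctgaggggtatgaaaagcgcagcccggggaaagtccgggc

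CCAAT was present in 7 of the 8 member windows, all but that of Btg1, against 34.0% of 33469 rat promoter windows of the same length. Gadd45a held a match to the p53 half-site 48 to 39 bases upstream of its start, and the windows of Ccng1 and Sesn1 held 1 each, against 6.64% of all windows. TATAAA was found in Gadd45g alone among the members, 48 to 43 bases upstream, and in 12.9% of all windows. Btg2 alone among them held TGACGTCA, 201 to 194 bases upstream, which occurs in 1.59% of all windows. The GC content of the 8 member windows ran from 53.6% in Ccng1 to 72.0% in Btg2, against a median of 51.2% over all windows. The best-known p53 sites of Gadd45a and Mdm2 lie in introns, outside these windows. A match describes the letters and is not evidence of binding.

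Values below are normalized log2 values: the log2 of the scanner's processed signal minus the 75th percentile of that array's probes, so that 0 is the level of a probe at that percentile. Intervals are 95% intervals from the scanner software's spot error, about 0.20 log2 for a difference between 2 arrays. They cover the reading of a spot and not the variation between cultures. A gene was counted as higher or lower in a comparison from 2.5-fold upwards, a threshold taken from the design text of the series.

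The 5 arrays were not equally bright. Median processed signals (scanner units) were 116.4 to 159.7 in the overexpression, overexpression control and knockdown control arrays, but 356.2 with knockdown and 329.4 in normal cells, and 67.0% to 86.6% of probes were well above background. The 4 transduced arrays were scanned on one day and the normal array on another, so scan day and transduction cannot be told apart in any comparison with normal cells. Against the matching control, Tmub1 mRNA by its 1 probe was 3.65-fold lower in the knockdown culture. In the culture labelled overexpression it was 1.05-fold higher (95% interval 0.797 to 1.39), an interval that includes no difference. The labels call BRL-3A hepatocyte cells. Alb, the main hepatocyte marker, was well above background on 2 of the 5 arrays, and 6 to 9 of the 10 hepatocyte markers were so on each array. Of 8 stellate cell and fibroblast markers, 7 or 8 were well above background on each array. The levels differed more than these counts. The median normalized log2 value was -5.06 to -3.85 over the arrays for the hepatocyte markers, and 2.9 to 3.84 for the stellate cell and fibroblast markers.

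Gadd45a, the DNA-damage-inducible founder of the family, had the widest span of the members. Its level was -1.48 in normal cells, 1.1 in the overexpression control, 1.77 with overexpression, 2.36 in the knockdown control and 3.61 with knockdown. Each of the 4 transduced cultures lay above normal cells, and the knockdown culture lay above all 4 others. The whole span was 34.1-fold, and the 3 control arrays alone spanned 14.3-fold. Neighbours in this order differed by 0.59 to 2.58 log2, each beyond the spot error.

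Gadd45b, which is induced by cytokines and TGF-beta and protects hepatocytes from death, was read at -0.63 in normal cells, 0.06 in the overexpression control, -0.57 with overexpression, -1.18 in the knockdown control and 0.86 with knockdown. The 3 controls spanned 2.37-fold, and the overexpression and normal arrays were within spot error of each other. Gadd45g, a cytokine-responsive family member, stood at -0.70 in normal cells, -2.58 in the overexpression control, -1.81 with overexpression, -1.59 in the knockdown control and 0.99 with knockdown. Only the knockdown array lay above the normal array for Gadd45g, and the 3 other transduced arrays were all below it.

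Btg1, an antiproliferative gene that is high in resting cells, stood at 3.43 in normal cells, 4.56 in the overexpression control, 4.74 with overexpression, 5.53 in the knockdown control and 3.50 with knockdown. It was therefore high in 3 of the 4 transduced cultures, and at the level of normal cells with knockdown. Btg2, its p53-inducible relative, was read at 0.94 in normal cells, 2.68 in the overexpression control, 1.79 with overexpression, 1.81 in the knockdown control and 0.70 with knockdown. Both BTG genes thus had normal and knockdown as their 2 lowest arrays. Their order among the other 3 differed, since Btg1 was highest in the knockdown control and Btg2 in the overexpression control.

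Mdm2 gave different pictures by its 2 probes, which carry the same accession. The brighter probe had 1.94 in normal cells, 3.29 in the overexpression control, 3.29 with overexpression, 3.17 in the knockdown control and 1.78 with knockdown, an order like that of Btg2 in which normal and knockdown were low. The dimmer probe had -3.06 in normal cells, -4.33 in the overexpression control, -3.18 with overexpression, -2.0 in the knockdown control and -0.94 with knockdown, so that knockdown was its highest array. Ccng1, the cyclin G1 gene and a direct p53 target, varied least, 2.66-fold over the 5 arrays. Its levels were 1.98 in normal cells, 0.78 in the overexpression control, 1.27 with overexpression, 2.19 in the knockdown control and 1.92 with knockdown, with the last 2 and the normal array within spot error of one another.

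**Figure D1:**
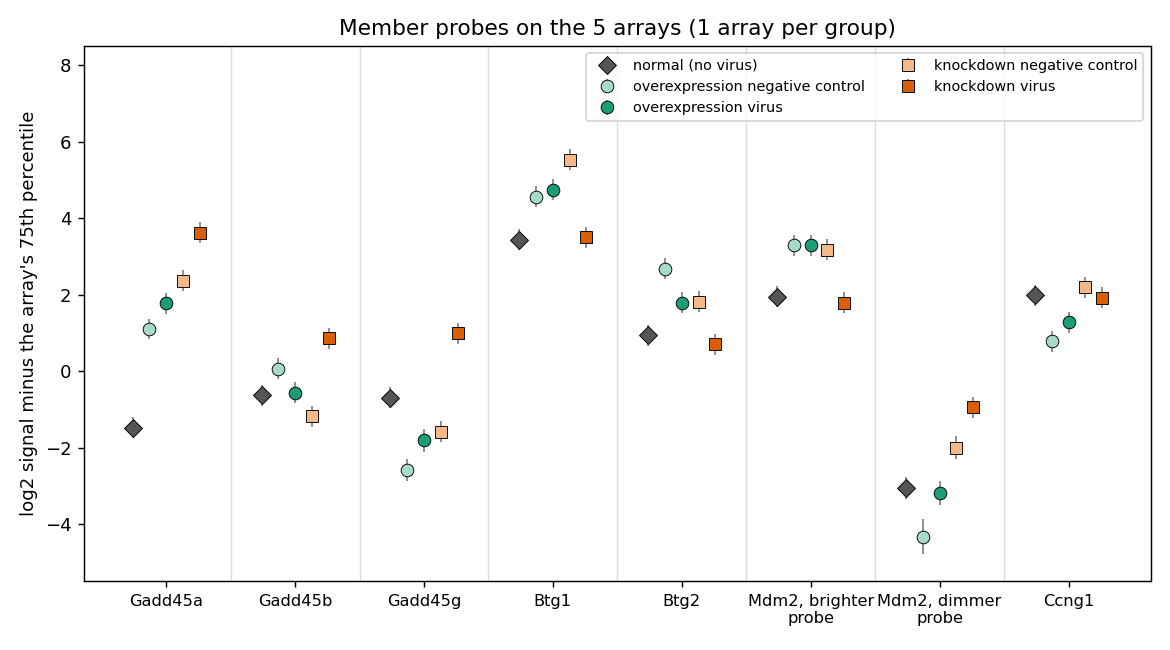
Normalized log2 value (log2 signal minus the array's 75th percentile) of the 8 member probes on the 5 arrays, 1 array per group, with bars for the 95% interval from scanner spot error. Gadd45a climbs from -1.48 in normal cells to 3.61 with the knockdown virus, and the 2 Mdm2 probes place the knockdown array at opposite ends.

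The overexpression virus was compared with its own negative control to ask whether cells carrying the Tmub1 vector differ in these genes. None of the 7 measured members reached 2.5-fold in either direction, where 1.71% of 11794 testable genes were higher, 1.01% lower and 2.72% either. Gadd45a was 1.59-fold higher (1.20 to 2.09), Gadd45g 1.70-fold higher and Ccng1 1.40-fold higher. Btg2 was 1.85-fold lower and Gadd45b 1.55-fold lower. Btg1 was 1.13-fold higher, and the brighter Mdm2 probe was at 1.00-fold (0.760 to 1.32). The dimmer Mdm2 probe was 2.22-fold higher (1.52 to 3.25).

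All 8 member probes with overexpression lay within the range that the 3 control arrays spanned. Against the control of the knockdown virus, again none of the 7 passed, where 1.92% of genes were higher, 2.16% lower and 4.08% either. Gadd45a was then at -0.59 log2, Gadd45b at 0.61, Gadd45g at -0.23 and Ccng1 at -0.92, so each of these 4 had the opposite sign to its difference from the overexpression control. For Gadd45g the interval there, -0.63 to 0.17, includes no difference. The sign also turned for Btg1, from 0.17 to -0.8 log2, and for the dimmer Mdm2 probe, from 1.15 to -1.18. For Btg1 the first of these was within spot error. Both comparisons share the overexpression array. Btg2 had -0.89 against its own control and -0.02 against the other.

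The knockdown virus was compared with its own negative control to ask what differs when Tmub1 mRNA is low. Of the 7 measured members, Gadd45b and Gadd45g were higher and Btg1 and Mdm2 lower by at least 2.5-fold, where 8.53% of 12656 testable genes were higher and 10.1% lower. The share of members past the fold in either direction was 57.1%, against 18.7% of all genes. Their median difference was -0.27 log2, against -0.21 over all genes. The split of all genes moves with the scaling: 45.7% of the genes past the fold were higher here, but 71.2% when the percentile was taken over 19481 probes that stood above background on every array and 34.0% after normexp background correction, and the median of all genes moved to 0.11 and -0.42 log2.

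Among the GADD45 genes the knockdown differences were all positive. Gadd45g was 5.97-fold higher (4.52 to 7.88) than in the knockdown control and Gadd45b 4.11-fold higher (3.11 to 5.42). Gadd45a was 2.38-fold higher (1.80 to 3.14), just short of the threshold, and it passed under 4 of 8 other settings, with 1.80 log2 after quantile normalization and 1.83 in the authors' log2 table. Over those settings Gadd45b ranged from 1.57 to 2.35 log2 and Gadd45g from 2.36 to 2.89, past the fold in each.

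Against the overexpression control, 2 members were higher with knockdown (Gadd45a and Gadd45g) and 2 lower (Btg2 and Mdm2), where 13.6% of 12455 genes were higher, 16.1% lower and 29.7% either. Gadd45g was 11.9-fold and Gadd45a 5.69-fold higher, and Gadd45b 1.73-fold higher. Against normal cells the folds were 3.22 for Gadd45g, 34.1 for Gadd45a and 2.80 for Gadd45b. The knockdown array lay above the highest of the 3 controls by 1.69 log2 for Gadd45g, 1.25 for Gadd45a and 0.79 for Gadd45b. These comparisons share the knockdown array.

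Btg1 and Btg2 were lower with knockdown than in its control. Btg1 was 4.08-fold lower (3.10 to 5.39), and Btg2 2.17-fold lower (1.64 to 2.86), which did not reach 2.5-fold. Against the overexpression control Btg1 was 2.09-fold and Btg2 3.95-fold lower, and against normal cells the log2 differences were 0.07 and -0.24. Btg1 with knockdown thus lay inside the range of the 3 controls, since the normal array was as low. With cyclic loess scaling, Btg1 came to -1.25 log2 against its own control, short of the threshold, and to 0.03 against the overexpression control.

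The signal before scaling shows how far these 2 differences depend on it. Btg2 gave a processed signal of 2295 with knockdown and 2412 in its control, and Btg1 gave 16057 and 31806. The 75th percentile subtracted from the log2 signals was 10.468 for the knockdown array and 9.425 for its control. Gadd45a, by contrast, gave 17312 with knockdown and 3533 in the control, Gadd45b gave 2570 and 303, and Gadd45g gave 2815 and 229.

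Mdm2 was 2.60-fold lower with knockdown than in its control by the brighter probe (1.97 to 3.44) and 2.09-fold higher by the dimmer probe (1.58 to 2.76). Against the overexpression control the brighter probe was 2.84-fold lower and the dimmer probe 10.5-fold higher. With cyclic loess the 2 values against the own control were -0.83 and 0.96 log2, neither past the threshold but still of opposite sign. No direction for Mdm2 mRNA can therefore be read from these arrays. Ccng1 was 1.21-fold lower against its own control (0.916 to 1.59, an interval that includes no difference), 2.20-fold higher against the overexpression control and at -0.06 log2 against normal cells.

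**Figure D2:**
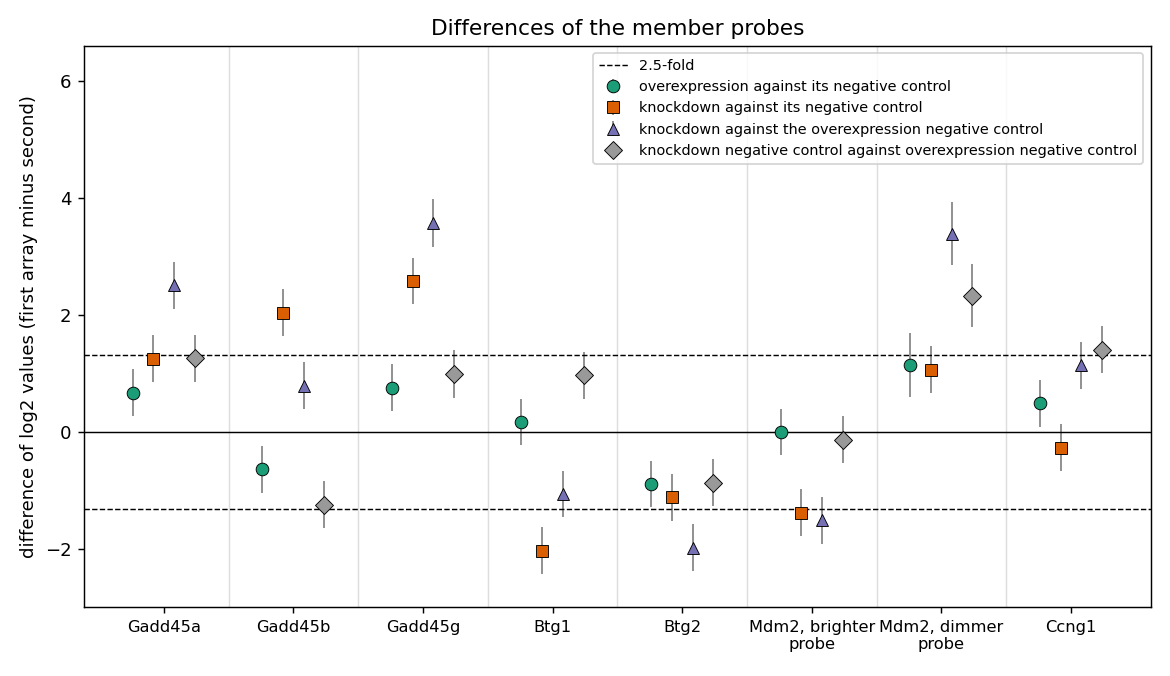
Log2 differences of the 8 member probes in 4 comparisons, with bars for the 95% interval from scanner spot error and dashed lines at 2.5-fold. The GADD45 genes are positive in both knockdown comparisons, the BTG genes negative, and the 2 Mdm2 probes lie on opposite sides of 0 at -1.38 and 1.06 against the knockdown control.

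Probes of one gene often disagreed, in the knockdown comparisons and in those with normal cells. Knockdown against its own control was read for 1474 genes with at least 2 probes above background on all arrays. Of these, 33.2% had a gap of 2.5-fold or more between the differences of the brightest and dimmest probe. Such a gap came with opposite signs in 26.5%, as for Mdm2. The brighter probe was the lower one in 91.0% of those gaps. The share with a gap was 49.3% for knockdown against the overexpression control, 4.55% for overexpression against its control and 18.1% between the 2 negative controls. Against normal cells it was 29.9% for the overexpression control, 11.1% for the knockdown control, 18.5% for overexpression and 28.0% for knockdown. The tilt turned against normal cells for 3 arrays: the brighter probe was lower in 10.7% of gaps for the overexpression control, 27.0% for the knockdown control and 16.9% for overexpression. For knockdown it was lower in 80.6%. With cyclic loess the share with a gap was 22.3% for knockdown against its own control. The brighter probe was lower in 83.6% of those gaps. Under the same scaling, its share against normal cells was 35.4% for the overexpression control and 53.6% for the knockdown control. It was 46.0% for overexpression and 81.3% for knockdown. The turn of the tilt against normal cells thus depends on the scaling.

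The 7 genes read from 1 probe each or from their brightest probe were not spread evenly over signal strength. Btg1 and the brighter Mdm2 probe, which were lower with knockdown, lay at the 98.5th and 92.4th percentile of probe signal in the knockdown control. Gadd45b and Gadd45g, which were higher, lay at the 66.7th and 63.4th percentile. Gadd45a, at 2.38-fold, lay at the 88.9th percentile there. The part of signal strength in the members' differences was not tested.

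**Figure D3:**
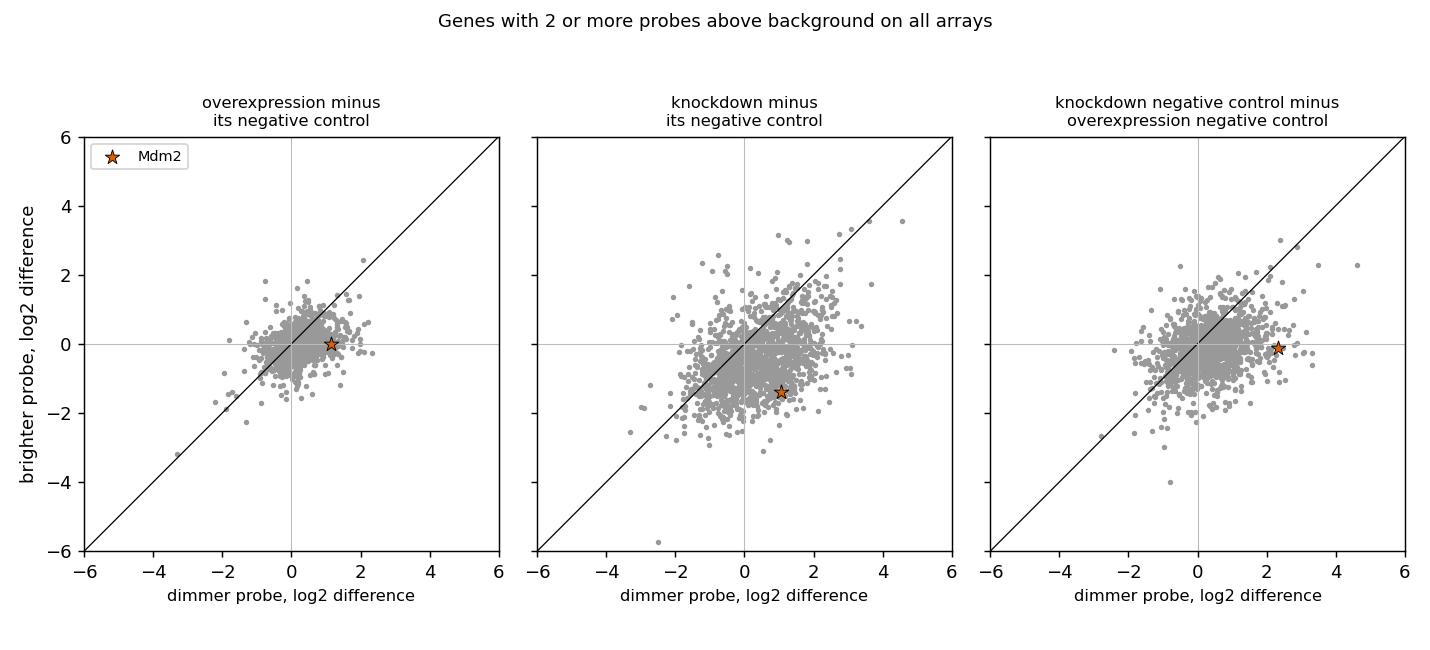
Log2 difference by the brightest probe (vertical) against that by the dimmest probe (horizontal) for 1474 genes with at least 2 probes above background on all arrays, in 3 comparisons, with equality on the diagonal and Mdm2 as a star. Points fall below the diagonal most widely for knockdown against its control, where 33.2% of genes have a gap of at least 2.5-fold.

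The 2 negative control viruses were set against each other to show how far cultures that carry only a control virus differ. Ccng1 was 2.66-fold higher in the knockdown control than in the overexpression control, and no other member passed 2.5-fold, where 5.22% of 11819 genes were higher, 3.38% lower and 8.6% either. Gadd45a was 2.39-fold higher (1.81 to 3.16) and Gadd45b 2.37-fold lower. Gadd45g and Btg1 were 1.99-fold and 1.96-fold higher, and Btg2 1.82-fold lower. The median of the 7 members was 0.97 log2 against 0.00 over all genes. The dimmer Mdm2 probe was 5.03-fold higher and the brighter one at -0.13 log2.

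Set beside each other, the knockdown difference of Gadd45a from its own control, 1.25 log2, stood beside 1.26 log2 between the 2 controls. The order of these 2 values turned with the scaling: they were 1.80 and 1.33 after quantile normalization, 1.83 and 1.30 in the authors' log2 table, 1.63 and 1.35 with cyclic loess, 1.56 and 1.32 with the other percentile base, and 1.30 and 1.19 after normexp. For Gadd45g the corresponding values were 2.58 and 0.99, for Gadd45b 2.04 and -1.24, and for Btg1 -2.03 and 0.97. These pairs of differences share the knockdown control array.

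Each negative control was also compared with normal cells, to show the difference between transduced and untransduced cells. Gadd45a was 5.99-fold higher in the overexpression control (4.54 to 7.90) and 14.3-fold higher in the knockdown control (10.9 to 18.9). With the overexpression virus it was 9.49-fold higher than in normal cells. Of the 7 members, Gadd45a, Btg2 and Mdm2 were higher and Gadd45g lower by at least 2.5-fold in the overexpression control, where 7.6% of 13447 genes were higher, 9.94% lower and 17.5% either. In the knockdown control Gadd45a and Btg1 were higher and no member lower, where 7.06% of 13496 genes were higher, 9.52% lower and 16.6% either.

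Btg2 was 3.33-fold and the brighter Mdm2 probe 2.56-fold higher in the overexpression control than in normal cells, while the dimmer Mdm2 probe was 2.42-fold lower. Before scaling, the overexpression control and normal cells gave 3551 and 2572 for Btg2, and 5435 and 5132 for the brighter Mdm2 probe. The 75th percentiles subtracted were 9.117 and 10.389, so these folds rest largely on the scaling. Mdm2 came under 2.5-fold in 6 of 9 alternatives and turned sign in 1, the dimmer probe. Btg1 was 4.30-fold higher in the knockdown control and 2.20-fold higher in the overexpression control. Gadd45g was 3.69-fold lower in the overexpression control, and its log2 difference in the knockdown control was -0.89. Ccng1 was at -1.20 and 0.21 log2 in the overexpression and knockdown controls. In the overexpression control 2 bright probes (Btg2 and Mdm2) were thus higher and the dimmer Gadd45g lower, the same tilt as between probes of one gene in that comparison. Gadd45a and Ccng1 went the other way. Gadd45a, at the 62.7th percentile of probe signal in normal cells, below Gadd45g at the 69.5th, was higher. Ccng1, at the 87.5th percentile there, was at -1.20 log2. The part of signal strength was not tested here either. With the overexpression virus, Gadd45a and, by its brighter probe, Mdm2 (1.35 log2) were higher than in normal cells and no member was lower, where 7.26% of genes were higher, 9.38% lower and 16.6% either. The dimmer Mdm2 probe was at -0.12 log2 there. With the knockdown virus, the 3 GADD45 genes were higher and no member was lower, where 11.2% of genes were higher, 19.3% lower and 30.5% either.

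Markers of several cell types differed between transduced and normal cells, as Gadd45a did. In the overexpression and knockdown controls, Tf, a hepatocyte marker, was 19.0-fold and 19.4-fold higher than in normal cells, Spp1, a cholangiocyte or progenitor marker, 12.6-fold and 8.10-fold, and Pecam1, an endothelial marker, at least 31.0-fold and 14.5-fold. Other markers of these lists were lower by at least 2.5-fold in the knockdown control. They were Apob, Fgb and Afp (hepatocyte), Krt7 (cholangiocyte or progenitor) and Kdr (endothelial). The hepatocyte list there had 2 genes higher and 3 lower. In the overexpression control no gene of these lists was lower by that much. Of 5 macrophage and leukocyte markers, 4 were measured, and their summed level was 0.85 log2 in normal cells and 2.18 to 2.93 in the 4 transduced cultures. Ptprc, the pan-leukocyte antigen CD45, was not well above background in normal cells and stood at -3.73 to -3.06 in the transduced ones, and Cd14 and Aif1 were at least 2.5-fold higher in all 4. Csf1r stood at -0.14 in normal cells and at -1.57 to -0.80 in the transduced cultures. The part of these markers' cell types in the Gadd45a difference was not tested. The share of genes past the fold that were higher also depends on scaling in these comparisons: for the overexpression control it was 43.3%, but 74.8% with cyclic loess and 24.4% with the percentile over probes above background, and for the knockdown control 42.6%, 74.6% and 29.7%. Gadd45a stayed between 2.27 and 2.62 log2 in the overexpression control and between 3.46 and 3.96 in the knockdown control over 8 such settings.

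The wider p53 programme held genes on both sides with knockdown. Of 32 listed p53 targets and regulators other than the members, 26 could be tested against the knockdown control. Of these, 5 were higher by at least 2.5-fold and 4 lower, 34.6% in all against 18.7% of all genes. Over all genes, 8.53% were higher and 10.1% lower. The list had a median of -0.45 log2 against -0.21 over all genes. Pmaip1, the BH3-only protein Noxa, was 6.63-fold higher, the p53 inhibitor Mdm4 5.52-fold, the sestrin Sesn2 4.34-fold and the polo-like kinase Plk2 3.92-fold. The fifth was Ei24 at 1.41 log2, which falls outside the naming rule and was added after its value was seen. Mdm4 was at 1.28 log2 against the overexpression control, short of 2.5-fold. Cdkn1a, the cell cycle inhibitor p21, was 3.25-fold lower, the BH3-only protein Bbc3 (Puma) 3.42-fold, the RNA-binding protein Zmat3 5.81-fold and the p53 phosphatase Ppm1d 3.11-fold. Cdkn1a was at -0.90 log2 against the overexpression control, short of 2.5-fold, and at 0.05 against normal cells. Bbc3 and Ppm1d were at -0.43 and -0.2 log2 against normal cells, also short of 2.5-fold, and Zmat3 was at -1.88. In the knockdown control the 5 higher genes stood at -4.45 (Pmaip1) to 0.95 (Plk2), and the 4 lower ones at 1.04 (Ppm1d) to 5.31 (Cdkn1a). The higher genes were thus the dimmer ones, and the part of signal strength was not tested. With cyclic loess 5 were higher and 2 lower.

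Zmat3, like Mdm2, differed by probe, with -2.54 log2 by the brighter and 1.35 by the other, whereas both Cdkn1a probes were negative, at -1.70 and -1.36. Sesn2 stood at -3.73 in normal cells, -4.14 in the overexpression control, -3.67 with overexpression, -2.14 in the knockdown control and -0.02 with knockdown, so the knockdown array was highest, as for Gadd45a. With overexpression, 1 of 24 testable genes was higher, Phlda3, a p53-induced repressor of AKT, at 2.66-fold, and none was lower. That is 4.17% against 2.72% of all genes, of which 1.71% were higher and 1.01% lower. Aen, added after its value was seen, differed by probe there, with -0.25 log2 by the brighter and 2.34 by the other. Phlda3 was below 2.5-fold after quantile normalization, and against the other control its difference turned to -1.17 log2.

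**Figure D4:**
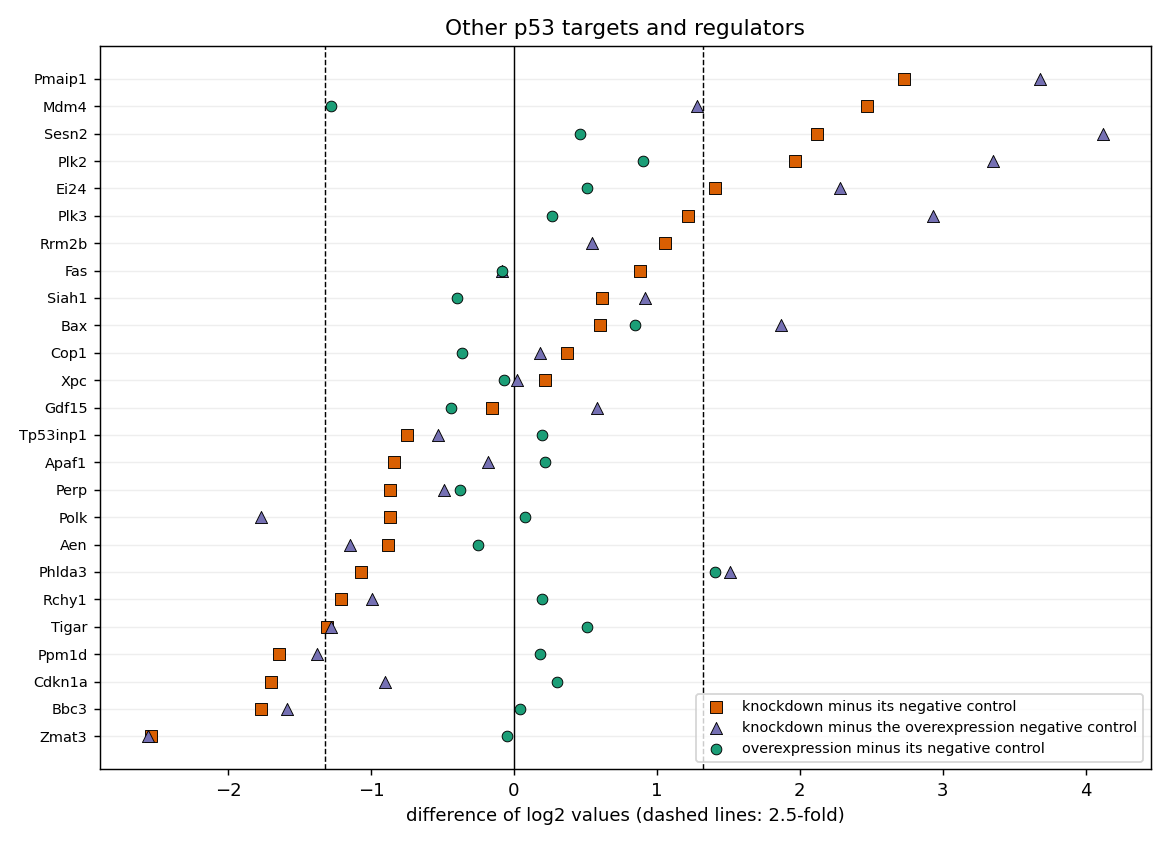
Log2 differences of p53 targets and regulators other than the members in 3 comparisons, ordered by the difference between knockdown and its negative control, with dashed lines at 2.5-fold. Squares run from -2.54 for Zmat3 to 2.73 for Pmaip1 on both sides of 0, while the overexpression circles stay mostly near 0.

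Among the binding partners of GADD45 proteins and the p38 and JNK kinases below them, 5 of 13 testable genes were higher with knockdown than in its control and 1 was lower, where 8.53% of all genes were higher and 10.1% lower. Their median was 0.07 log2 against -0.21 over all genes. Map3k4, the kinase that GADD45 proteins bind and activate, was 3.07-fold higher. The kinases Map2k6 and Mapk9 (JNK2) were 3.51-fold and 3.23-fold higher, and Ccnb1, the cyclin B1 that GADD45 proteins part from CDK1, 3.01-fold. The fifth, added after its value was seen, was the kinase Map2k4 at 1.59 log2. Ccnb1 was at 0.43 log2 against the overexpression control and 0.09 against normal cells. It was read at 0.56 in the knockdown control and 0.57 with overexpression, its 2 lowest arrays. Mapk14, the p38 alpha kinase, was 2.62-fold lower, and came under 2.5-fold with quantile normalization and cyclic loess. In the knockdown control the 5 higher genes stood at -5.05 (Map2k6) to 0.56 (Ccnb1), and Mapk14 at 4.02. The part of signal strength was not tested. With overexpression 0 of 13 passed.

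In the BTG and TOB family with the deadenylases they recruit, 1 of 16 testable genes was higher with knockdown and 2 were lower, which is 18.8% against 18.7% of all genes. The median was -0.45 log2 against -0.21 over all genes. Tob1 and Tob2, the relatives of BTG proteins that also bind CCR4-NOT, were 4.55-fold and 3.23-fold lower. Tob2 was at -0.53 log2 against the overexpression control and -0.09 against normal cells, short of 2.5-fold in both. Cnot6l, a catalytic deadenylase of the complex, was at least 5.02-fold higher, a bound set by a value below background in the control. Of the cyclin G partners, Ppp2r5c and Ppp2r2a, regulatory subunits of PP2A, were 3.35-fold and 2.70-fold higher, and the other 8 of 10 did not pass, so that 20.0% did against 18.7% of all genes. Against the overexpression control these 2 were at 1.28 and 0.69 log2, short of 2.5-fold. By their second probes, Ppp2r5c was at 2.75 log2 against the knockdown control and Ppp2r5e, among the other 8, at -2.74. Ppp2r5e, added after its value was seen, was at -1.19 by its brighter probe. In the list of sestrins, GATOR and TSC subunits and related genes, which act on mTORC1 in either direction, 2 of 13 were higher and 1 lower, 23.1% in all: Sesn2, Tsc1 at a bound of at least 3.19-fold, and the arginine sensor Castor1, 2.50-fold lower and under the fold after each of 5 other scalings or corrections. In the BTG and TOB list and in the sestrin list, the higher genes were dimmer in the knockdown control than the lower ones. The part of signal strength was not tested. None of the 3 lists had a gene past 2.5-fold with overexpression.

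Transcription factors known to act on GADD45 and BTG genes included 3 of 12 testable that were higher with knockdown and 1 that was lower, 33.3% against 18.7% of all genes. Their median was 0.77 log2 against -0.21 over all genes. The immediate early factor Egr1 was 5.13-fold higher, the TGF-beta effector Smad2 4.83-fold and Brca1 3.21-fold, and Stat3 was 4.53-fold lower. In the knockdown control the 3 higher genes stood at -4.86 (Brca1) to -2.65 (Egr1), and Stat3 at 2.75. The part of signal strength was not tested. With overexpression, Smad4 was 2.87-fold higher than in its own control, and at -0.14 log2 against the other control.

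Likeness of pattern was measured as the root mean square distance between 5-array profiles, each centred on its own mean, over 10659 genes above background on all arrays. These distances rest on 5 arrays of unequal brightness and carry no test. Gadd45a had no gene within 0.25 log2, and its closest were the transcription factor Klf2 at 0.52, the cysteine-forming enzyme Cth at 0.58 and the myeloid receptor Trem2 at 0.63. Gadd45g had 10 genes within that distance, led by Ikbip at 0.05, Actn1 at 0.12 and Hnrnpdl at 0.15. Gadd45b had 36, led by the crosslink repair nuclease Dclre1a at 0.09, Stradb at 0.13 and Zfp202 at 0.13.

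For Btg1, 19 genes lay within 0.25 log2, and Cdkn1a was among the 3 closest at 0.13, after Tlcd4 at 0.11 and beside Rnase2 at 0.13. Btg2 had 78 such genes, among them Tmem268 at 0.12 and Rftn1 at 0.13. Mdm2 by its brighter probe had 377, led by Hoxd9 at 0.07 and by C7h8orf82 and Pam16 at 0.08. Ccng1 had 127, led by Prpf38b and Pde4dip at 0.08 and Map3k1 at 0.09. Among the members themselves, Btg2 and Mdm2 were closest at 0.31, then Btg1 and Mdm2 at 0.38 and Btg1 and Btg2 at 0.60. The 3 GADD45 genes lay 1.01 to 1.76 apart, farther from each other than the BTG genes were.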

How the data were processed

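Per the file headers, the authors read the arrays with Agilent Feature Extraction 11.0.1.1, whereas version 9.1 stands in the submitters' processing notes. The deposited processed signal is an intensity, background-subtracted by that software and not scaled between arrays. The authors also deposited a log2 table with equal medians (6.685) in its 5 columns, as quantile normalization leaves them; it was used as an alternative and correlated with the scanner values at 0.990 to 0.999 across probes. The sources used here do not name its software.

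Control spots and outlier spots were left out, replicate spots averaged, log2 taken and each array's 75th percentile subtracted. A probe was well above background when most of its spots were so marked. Of 30366 probes, 18004 matched a RefSeq gene by accession and 12362 stayed unnamed. Where a gene had several probes, the one with the highest mean stood for it. A gene was testable if at least its brighter value passed that mark; a dimmer value below background was raised to the array's lowest value above it, which gives a bound. Background shares are over all genes so tested.

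The rule for naming genes took the members, Tmub1, up to 4 genes per list and direction past 2.5-fold against the own control (largest first among those above background on both arrays, those known by a bound after them), and the 3 nearest profiles per member. Members and lists were chosen with earlier results of these data known. Alternatives were quantile normalization, cyclic loess, another percentile base, normexp (offset 50, on median pixel signals), the authors' table, probe averaging, other filters on dim probes, folds of 2 and 4, and other reference arrays; the dimmer Mdm2 probe was added after seeing the data. Values of 2 other genes that the rule or lists took are not reported here. The calling step was tested on simulated data with the same brightness shift for every probe. That test does not cover a tilt with signal strength. Tools were R 4.3.3 with limma 3.58.1 and Python 3.11.15 with pandas 2.3.3.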

Additional observations from a re-analysis of the deposited data

How the results depend on the processing

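No paired analysis was possible because every group has replicate number 1 and 1 array. No replicate was left out, since each group has 1. The number of arrays and the unequal signal over background limit every comparison, and the scanner error does not cover the culture.

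For knockdown against its control, the count of 2 lower members became 1 with quantile normalization, the percentile over probes above background, normexp, the authors' table, the mean of probes, a fold of 4 and the dimmer Mdm2 probe, and 0 with cyclic loess and with normal cells as reference. The dimmer Mdm2 probe gave 1.06 log2 there, 2.33 between the 2 controls and -1.27 for the overexpression control against normal cells, each with its sign turned. Btg1 came to 0.07 against normal cells. The count of 2 higher members kept within 1.5 times under each alternative run, but the genes changed. It was 3 with normal cells as reference, and Gadd45a also passed under 4 of 8 other settings. Against the overexpression control the 2 were Gadd45a and Gadd45g.

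With normal cells as reference, 2 members were higher with overexpression, 1 of them Mdm2 at 1.35 log2 by its brighter probe and -0.12 by the dimmer. Between the controls, the 1 higher member became 2 with quantile normalization, cyclic loess, the percentile over probes above background, a fold of 2 and the dimmer Mdm2 probe, and 0 at a fold of 4; 1 was lower at a fold of 2. For the overexpression control against normal cells, the 1 lower member became 2 with quantile normalization, cyclic loess, the percentile over probes above background, the authors' table and a fold of 2, and 0 with normexp and a fold of 4, where 1 was higher at a fold of 4. The cause was not tested.

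Counts over all genes moved more than 1.5 times: with overexpression 202 higher and 119 lower became 38 and 39 with normexp and 434 and 315 without a filter on dim probes, and with knockdown 1079 and 1284 became 485 and 940 with normexp and 1691 and 685 with the percentile over probes above background. Between the controls, 617 and 400 became 178 and 207 with normexp. Against normal cells, the overexpression control's 1022 and 1336 became 1139 and 384 with cyclic loess, and the knockdown control's 953 and 1285 became 1251 and 426.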
